A study of Rattus norvegicus with 2 samples.

Results

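The MEF2 factors and the class IIa histone deacetylases are 8 genes, Mef2a, Mef2b, Mef2c, Mef2d, Hdac4, Hdac5, Hdac7 and Hdac9, taken by their gene symbols in the platform annotation of the array. A probe set with such a symbol was present for 7 of the 8, out of 16592 genes that carried 1 symbol, and Mef2a was not measured here. The probe sets were 498607_at (Mef2b), 499497_at (Mef2c), 81518_at (Mef2d), 363287_at (Hdac4), 84580_at (Hdac5), 84582_at (Hdac7) and 314040_at (Hdac9). The genes were read in neonatal rat ventricular myocytes, muscle cells of the heart ventricles of rat pups aged 1 to 2 days, on 2 one-colour Affymetrix arrays. The cells were transduced with a single adenovirus carrying a short hairpin RNA (shRNA), against Mef2d on one array and against lacZ, a bacterial gene absent from rat cells, on the control array. Both cultures recovered for 24 hours in medium with 10% serum and were moved to low-serum medium (Nutridoma at 0.5x). They received the virus and were harvested after 3 days, so the control cells were given an adenovirus with a hairpin too. From these labels, the arrays are called lacZ-labelled and Mef2d-labelled. Each array was a pool of 6 biological replicates by the design text, whereas the extraction protocol speaks of 3 per condition and of myotubes. The sources used here do not give the hairpin sequences.

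MEF2 factors are transcription factors that bind A/T-rich elements near muscle and neuronal genes through a shared MADS domain and recruit either activators or repressors there. Class IIa histone deacetylases sit on MEF2 and hold its target genes silent. When calcium-dependent kinases such as CaMKII and protein kinase D phosphorylate them, 14-3-3 proteins bind, the enzymes leave the nucleus and MEF2 is released. In heart muscle this switch is known for its part in hypertrophy and in the return of fetal genes, and in mice Mef2d has been tied to stress-induced cardiac growth.

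Levels are log2 RMA values, which have no absolute zero and no detection call, and a difference is the Mef2d-labelled array minus the lacZ-labelled array. With 1 array per condition no value has a replicate error, no test was possible, and precision is limited by the number of arrays. Genes were kept when their mean level was at or above the 30th percentile (4.85), which all 7 measured members and 11614 genes in all passed. A gene was counted when its difference reached 1.5-fold, which is 0.58 in log2 units. Of the members, 1 was at least that much higher on the Mef2d-labelled array and 0 were that much lower, against a background of 0.844% higher and 0.534% lower among all genes kept. The members were few, so a share over them cannot be read against those percentages. In pooled RNA from a culture, fewer cells of a type and less RNA per cell cannot be told apart.

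Mef2d, the gene the hairpin was aimed at, had its higher level on the array labelled as its knockdown. Its level was 8.22 on the lacZ-labelled array and 8.94 on the Mef2d-labelled array, a difference of 0.71, or 1.64-fold. The targeted transcript therefore stood opposite to its label, and both arrays keep their labelled names throughout. Every direction given here would turn if the labels had been exchanged. Only 41 of 11614 genes (0.353%), Mef2d among them, had a difference at least as high, and 71 (0.611%) were as far from 0 in either direction. Mef2d lay at the 74.3rd percentile of all named probe sets on the lacZ-labelled array and at the 84.1st on the other. The sources used here do not say which part of the transcript the probe set reads, or whether that part lies outside the stretch the hairpin targets.

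Mef2c differed in the opposite direction to Mef2d, by less, and Mef2b was too weak to be placed. Mef2c, which is needed for the looping and right ventricle of the mouse heart, had a level of 8.64 on the lacZ-labelled array and 8.45 on the Mef2d-labelled array. Its difference of -0.19 lay within the bulk of genes, as 1512 of 11614 were at least as low. Mef2b, a member best known from B cells, had levels of 5.14 and 5.08, only 0.26 above the level filter, where a value can hardly be told from background. The differences of Mef2c and Mef2d stood 0.91 apart (Mef2c minus Mef2d -0.91). Mef2c lay at the 80.4th percentile of probe sets on the lacZ-labelled array and at the 77.5th on the Mef2d-labelled array. These are positions on an array, since levels of different probe sets are not amounts that can be compared.

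**Figure D1:**
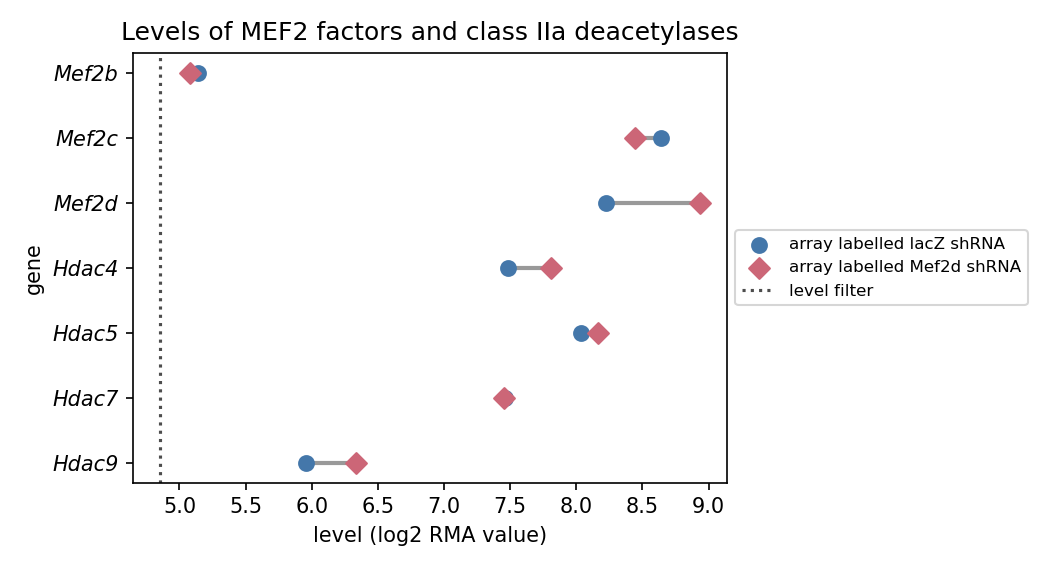
Levels (log2 RMA values, x axis) of the 7 measured genes (y axis) on the lacZ-labelled array (circles) and the Mef2d-labelled array (diamonds), joined by a bar, with the level filter as a dotted line. Mef2d spans 8.22 to 8.94, Hdac4 and Hdac9 are higher by less on the Mef2d-labelled array, Mef2c is lower there, and for Hdac7 the diamond covers the circle.

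Among the class IIa deacetylases, Hdac9 and Hdac4 had the larger differences and Hdac5 and Hdac7 the smaller. Hdac9, whose short splice form MITR lacks the catalytic domain and represses MEF2 without it, had a level of 5.96 on the lacZ-labelled array and 6.33 on the Mef2d-labelled array. The difference was 0.38, and 411 of 11614 genes (3.54%) were at least as high. Hdac4, the enzyme that CaMKII docks to and drives from the nucleus, had levels of 7.48 and 7.81 (difference 0.33, 1.25-fold). For Hdac4, 596 genes (5.13%) were at least as high. Both values were higher on the Mef2d-labelled array, by less than the 1.5-fold threshold.

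Hdac5, whose loss in mice sensitizes the heart to pressure overload, had a level of 8.04 on the lacZ-labelled array and 8.17 on the Mef2d-labelled array, a difference of 0.13 that 21.5% of genes equalled or exceeded. Hdac7, known mainly for its part in blood vessels and thymocytes, had levels of 7.46 and 7.45, a difference whose sign depended on the scaling between the arrays (-0.02 to 0.01 under 3 others). It lay at the centre of all genes, as 50.1% of them were at least as high. Over the 4 enzymes the median difference was 0.23 (0.13 with the level filter at the median of genes, which Hdac9 did not pass), with 3 above 0 and 1 below, beside a median of -0.01 over all genes kept, of which 48.2% were above 0. The differences of Hdac4 and Hdac9 were 0.05 apart (Hdac4 minus Hdac9 -0.05), whereas those of Hdac7 and Hdac9 were 0.38 apart (Hdac7 minus Hdac9 -0.38).

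The spread among genes of like level gives a yardstick, although it mixes noise with any real difference and is no replicate error. The robust SD of differences (from the median absolute deviation), taken in 20 bins of genes by level, was 0.16 around Mef2d, which lay 4.58 of these SDs above the centre of its bin. Hdac9 lay 1.94 and Hdac4 1.91 robust SDs above their centres, in bins with robust SDs of 0.21 and 0.17. Mef2c lay 1.05 below (value -1.05), Hdac5 lay 0.86 above, and Mef2b and Hdac7 were within 0.10 of their centres. A lower threshold of 1.3-fold (0.38 on the log2 scale), which 3.51% of genes passed upward and 2.47% downward, still took in Mef2d alone. Hdac9 missed it in the third decimal place, and passed it, with 0.39 to 0.40, after each of the 3 other scalings between the arrays.

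**Figure D2:**
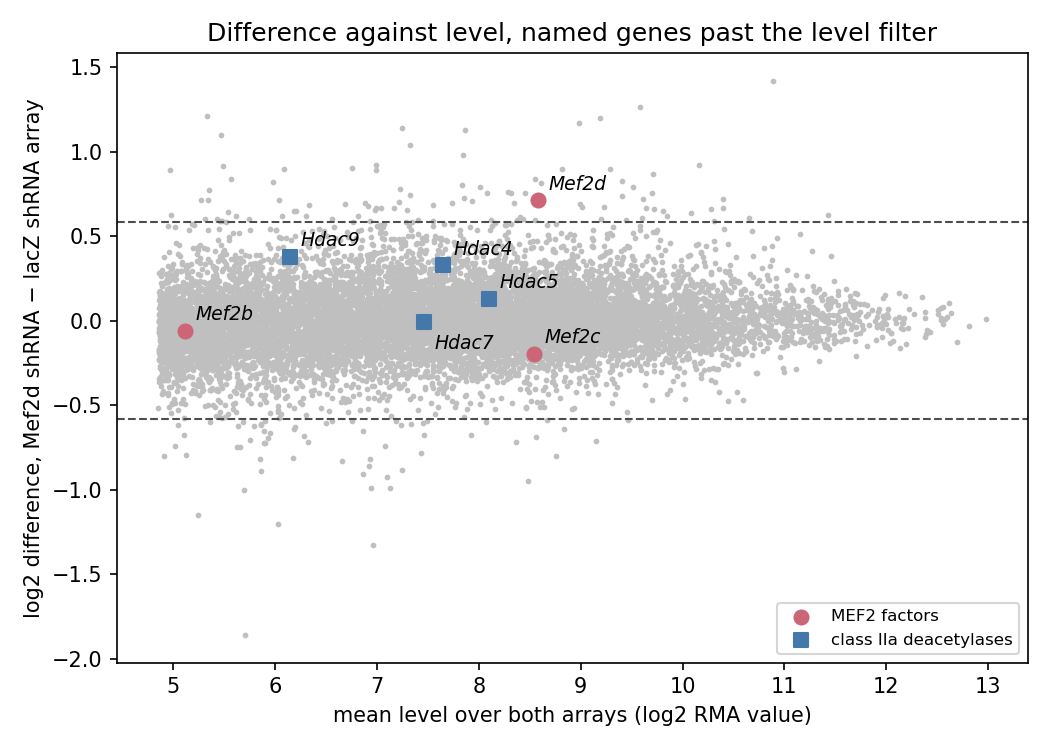
Log2 difference (Mef2d-labelled array minus lacZ-labelled array, y axis) against the mean log2 RMA level over both arrays (x axis) for the 11614 genes past the level filter in grey, with MEF2 factors as red circles and class IIa deacetylases as blue squares. Dashed lines mark 1.5-fold, and of the 7 members Mef2d (0.71) lies beyond them.

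The genes whose pair of levels was closest to that of Mef2d were found by the straight-line distance over the 2 log2 levels, which rests on 2 arrays and says only that the values are alike. They were Grsf1 (distance 0.08, difference 0.81), an RNA-binding protein of mitochondria, Napepld (0.09, difference 0.60), an enzyme that makes N-acylethanolamine lipids, Myl1 (0.10, difference 0.84), a myosin light chain, Med10 (0.17, difference 0.57), a Mediator subunit, and Ccrl1 (0.17, difference 0.47). For Hdac9 the closest were Zfp3, Duoxa1, RGD1566386, Fgd4 and Dennd2c. Their distances ran from 0.03 to 0.06 and their differences from 0.31 to 0.36, all below the 1.5-fold threshold as Hdac9 was.

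The promoters of the family differ in composition and in the letters they hold. A table of RefSeq gene starts on GRCr8 held 1 window for each of 7 members, Mef2c being the one without, and the 250 bases upstream of each start were searched on both strands for 5 motifs. These were the MEF2 element itself, the SRF element, the cyclic AMP response element TGACGTCA, the GC box GGGCGG and the CCAAT box CCAAT. The MEF2 element was read as YTAWWWWTAR, where Y is C or T, W is A or T and R is A or G. Other starts of the same genes, which can have other promoters, were not searched. The MEF2 element was found in 2 members, Mef2a and Hdac5, in 2.96% of all 33469 windows and in 1.67% of the 9657 genes past the level filter that have a window. The GC box was found in 4 members (Mef2b, Mef2d, Hdac4 and Hdac5), in 30.5% of all windows and in 59.3% of those 9657 genes. The CCAAT box was found in 5 members, in 34.0% of all windows and in 35.8% of those genes. The members are few, so shares over them cannot be read against any of these percentages. The SRF element (501 of 33469 windows) and the cyclic AMP response element (1.59%) were in none of the 7. None of the 18 matches overlapped another.

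The upstream windows of Mef2d and Hdac5 are shown because Mef2d has the largest difference of the family and Hdac5 is the measured member with a MEF2 element. Both run 5′ to 3′ in the direction of the gene and end at the base before the start. That of Mef2d lies at chr2:175904082-175904331 on the plus strand, is 73.2% G and C, and has its 3 GC boxes in capitals. That of Hdac5 lies at chr10:87688055-87688304 on the minus strand and has its MEF2 element in capitals.
Mef2d: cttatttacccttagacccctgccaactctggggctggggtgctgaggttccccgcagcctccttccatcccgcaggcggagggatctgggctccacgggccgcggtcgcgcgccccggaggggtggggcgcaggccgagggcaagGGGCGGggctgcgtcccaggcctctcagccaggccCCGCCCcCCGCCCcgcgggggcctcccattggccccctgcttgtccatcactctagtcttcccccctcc
Hdac5: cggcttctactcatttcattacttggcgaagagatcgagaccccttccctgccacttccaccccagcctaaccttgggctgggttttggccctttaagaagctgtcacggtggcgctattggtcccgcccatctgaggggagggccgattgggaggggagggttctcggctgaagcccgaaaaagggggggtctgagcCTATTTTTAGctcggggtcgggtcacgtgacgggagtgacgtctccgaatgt

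The element of Hdac5 lies 52 to 43 bases before the start (positions -52 to -43) and that of Mef2a 40 to 31 bases before it (positions -40 to -31). Hdac9 has the most A/T-rich window of the 7, with 34.4% G and C, and holds no MEF2 element there, while Hdac7 has 72.0% G and C and holds none of the 5 motifs. The member with an element and a measured level, Hdac5, had the difference of 0.13 given above, whereas Mef2d, Hdac9 and Hdac4, with larger differences, had no element in these windows. A match is a description of letters and no match says nothing about binding.

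**Figure D3:**
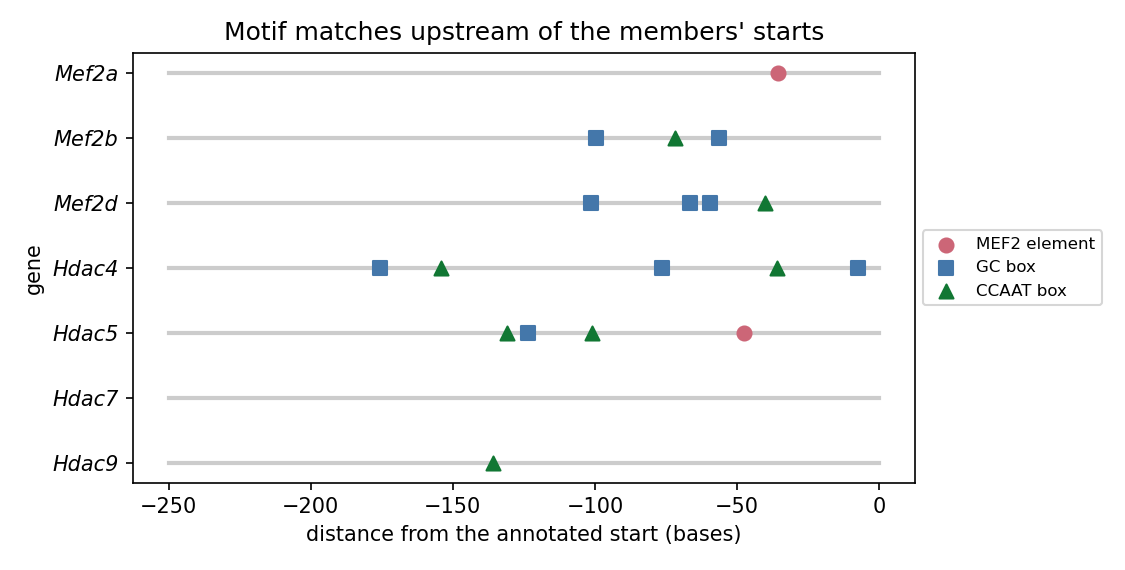
Matches to the MEF2 element (circles), the GC box (squares) and the CCAAT box (triangles) in the 250 bases before the annotated start (x axis, bases from the start) of the 7 members with a window (y axis). The MEF2 element appears in Mef2a and Hdac5, close to the start in both, and Hdac7 shows no match.

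The same element was then sought upstream of all genes, since MEF2 factors act through it and the level of Mef2d differed between the arrays. This search was chosen after the values were seen. A window was found for 9657 of the genes kept, and the background among these was 0.828% past 1.5-fold upward and 0.518% past it downward. Of the 161 genes with a MEF2 element, 7 (4.35%) were at least 1.5-fold higher and 1 (0.621%) was lower. A stricter form of the element left 45 genes, of which 2 were higher and 0 lower. Of the 9496 genes without it, 73 (0.769%) were higher and 49 (0.516%) were lower. The median difference was 0.03 with the element and -0.01 without. For the other motifs the share that was higher was 0.840% with the SRF element (1 of 119 genes) and 0.366% with the cyclic AMP response element (1 of 273). It was 0.769% with the GC box (44 of 5724) and 0.781% with the CCAAT box (27 of 3456). The first 2 shares rest on 1 gene each. Windows with a MEF2 element had a median of 50.4% G and C against 60.4% without, and median levels were 7.40 and 7.66. The median G and C was 57% with the SRF element and 60.8% with the cyclic AMP response element. It was 64% with the GC box and 58.8% with the CCAAT box, so none of these sets was as rich in A and T. The part of base composition and of level in these counts was not tested.

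All 8 genes with a MEF2 element that differed by 1.5-fold are named here, after their values were seen. Of these, Myl1 and Trim72 hold the stricter form and the others the wider form only. Casq2, the calcium store protein of the cardiac sarcoplasmic reticulum, had levels of 10.18 on the lacZ-labelled array and 11.60 on the Mef2d-labelled array (2.67-fold). Myl1, a myosin light chain of fast and embryonic muscle, had levels of 8.13 and 8.97 (1.79-fold). Trim72, which patches torn muscle membranes, had levels of 7.44 and 8.24 (1.75-fold). These 3 genes had the largest upward differences among the element genes. Cav3, the caveolin of muscle, had levels of 8.64 and 9.34 (1.61-fold). Gbp1, an interferon-inducible GTPase, had levels of 5.99 and 6.67 (1.61-fold). Myadml2 was 1.53-fold higher, and Fbxo40, a muscle F-box protein, had a difference of 0.59, only just past the threshold. The lower gene was Rab15, a small GTPase of membrane traffic, with levels of 7.35 and 6.49 (1.82-fold).

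The elements of these genes and of both members that hold one are shown side by side with 10 flanking bases on each side, from GRCr8, 5′ to 3′ in the direction of the gene, with the element in capitals. They are shown because each is a match behind the counts above, and their inner letters vary between genes.
Casq2, chr2:192214397-192214426: attgcatgatTTATTTTTAGcccgaaacaa
Myl1, chr9:75897956-75897985: cgctggattcCTAAAAATAGccctagggta
Trim72, chr1:192044060-192044089: gataggacagCTAAATATAGttcttgggcc
Cav3, chr4:147137905-147137934: ccatccagtcTTAATTTTAGcttggaggcg
Gbp1, chr2:234072238-234072267: aataacaagtTTAAAAATAGtaaagccaga
Myadml2, chr10:106425925-106425954: atcagtctgtTTATTTATAGcgctgggggg
Fbxo40, chr11:77300055-77300084: tgatatagttTTATTTTTAActttgaaaca
Rab15, chr6:101257217-101257246: ggcggagtgaTTAAAATTAAgctcaggatg
Mef2a, chr1:130392183-130392212: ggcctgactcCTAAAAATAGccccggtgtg
Hdac5, chr10:87688087-87688116: gggtctgagcCTATTTTTAGctcggggtcg
Myl1 and Mef2a carry the same 10 letters, and Hdac5 carries the same element on the opposite strand. The genes of Casq2, Trim72, Cav3, Gbp1 and Fbxo40 lie on the plus strand and the other 5 on the minus strand.

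**Figure D4:**
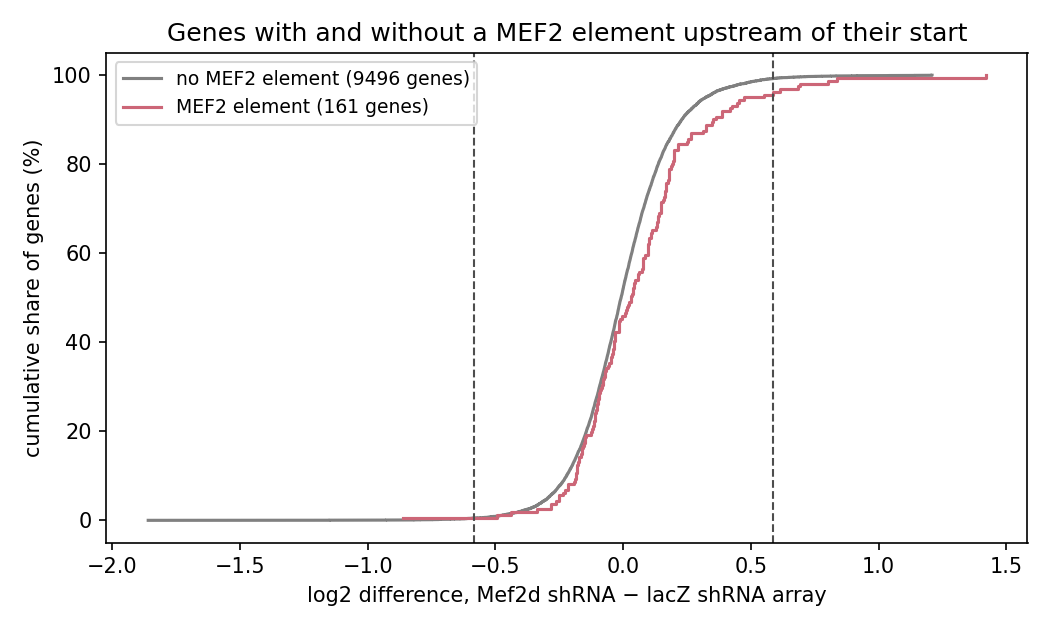
Cumulative share of genes (y axis, percent) by log2 difference between the arrays (x axis, Mef2d-labelled array minus lacZ-labelled array) for 161 genes with a MEF2 element in the 250 bases before their start (red) and 9496 without (grey), with dashed lines at 1.5-fold. The red curve runs to the right of the grey one on the high side, where 7 of 161 genes lie beyond the dashed line against 73 of 9496.

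A list of 22 muscle genes described as MEF2 targets was divided about evenly around 0. Of the 21 past the level filter, 12 were above 0 and 9 below, with a median difference of 0.02. Casq2 was at least 1.5-fold higher and none was as much lower, beside 0.844% higher and 0.534% lower among all genes kept. Of those genes, 48.2% were above 0. Casq2 had the highest difference of all 11614 genes kept and is also 1 of the element genes above. The list was chosen with earlier results of these data known. The insulin-responsive glucose transporter gene Slc2a4 came next (difference 0.57), followed by Mb (0.50). Hdac9, itself described as a MEF2 target in mice, is on the list with its 0.38, as is Mef2c with its -0.19. At the other end were Myh6, the alpha myosin heavy chain (difference -0.46), and the orphan receptor gene Nr4a1 (difference -0.20). A promoter window was found for 13 of these genes and a MEF2 element in 3 of them. These were Casq2, Xirp1 and Xirp2, the latter pair being Xin repeat proteins of the intercalated disc with differences of 0.18 and 0.02.

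Genes that act on the family were followed in 5 further lists, and of 75 distinct genes past the filter 0 were at least 1.5-fold higher and 0 lower. Among all genes kept these shares were 0.844% and 0.534%, so counts of 0 are near the background. Of all genes kept, 48.2% were above 0. The other histone deacetylases, 7 genes, had a median difference of -0.04 with 2 above 0 and 5 below. Among the class I enzymes, catalytically active nuclear deacetylases, Hdac1 was lowest, with levels of 8.68 on the lacZ-labelled array and 8.30 on the Mef2d-labelled array (difference -0.37). Hdac2 had a difference of -0.16. The cytoplasmic tubulin deacetylase Hdac6 (difference 0.23) and the class IV enzyme Hdac11 (0.17) were highest. Hdac3, which supplies the catalytic activity found in class IIa complexes, and Hdac8 each had a difference of -0.04, close to the centre of genes of like level.

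The kinases that phosphorylate class IIa enzymes, with 14-3-3 and export factors, had a median of 0.07 over 21 genes, with 15 above 0 and 6 below. The calcium/calmodulin-dependent kinase genes Camk1g (difference 0.52, from a low level of 5.38) and Camk2g (0.33) were highest. Lowest were Camk1d (difference -0.36), listed under the older symbol RGD1560691, and Mark2 (-0.33). Camk2d, the main CaMKII gene of heart, had a difference of 0.13, and the protein kinase D genes Prkd1, Prkd2 and Prkd3 had 0.07, 0.03 and 0.25; these 4 were named for their role after their values were seen.

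The kinase and calcineurin inputs to MEF2 had a median of -0.04 over 18 genes, with 6 above 0 and 12 below. Map2k3, an activator of p38, was highest (9.02 on the lacZ-labelled array, 9.50 on the Mef2d-labelled array, difference 0.49), followed by the calcineurin subunit gene Ppp3cc (0.12). Prkacb, a catalytic subunit of protein kinase A, was lowest (difference -0.47), followed by Map3k3 (-0.28), which feeds the ERK5 pathway.

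Coactivators and DNA-binding partners of MEF2 had a median of 0.02 over 15 genes, with 10 above 0 and 5 below. The calcineurin-responsive factor Nfatc3 was highest (8.76 and 9.21, difference 0.45), followed by Tead1 (0.24). Smad2 (-0.18) and Nfatc4 (-0.15) were lowest. Corepressors of MEF2 or of class IIa enzymes had a median of 0.05 over 14 genes, with 8 above 0 and 6 below. Ankra2, an ankyrin repeat protein that binds Hdac4 and Hdac5, was highest (6.77 and 7.17, difference 0.41), followed by Tbl1x (0.27), a subunit of the NCoR complex. Sin3a, a scaffold that holds Hdac1 and Hdac2, was lowest (8.64 and 8.27, difference -0.37), followed by the chaperone gene Dnajb5 (-0.14).

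**Figure D5:**
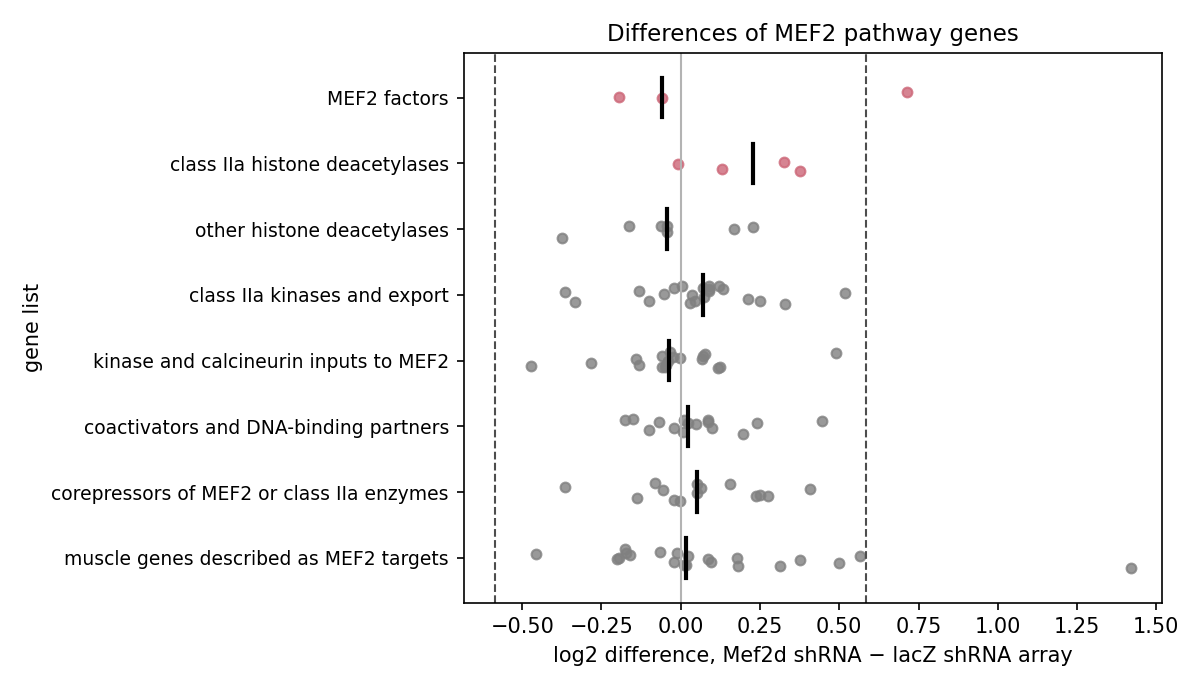
Log2 difference (Mef2d-labelled array minus lacZ-labelled array, x axis) of each gene past the level filter in 8 lists (y axis), with a black bar at each list's median and dashed lines at 1.5-fold. Points are spread vertically only for legibility. The points beyond a dashed line are Mef2d and Casq2.

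Defining markers of cardiomyocytes were measured on both arrays, beside those of other cell types. Of 16 cardiomyocyte markers, 15 had a probe set, all past the filter, with levels from 7.31 to 12.82 and a mean of 10.80 on the lacZ-labelled array and 10.85 on the Mef2d-labelled array. Their differences ran from -0.46 (Myh6) to 0.39 (Myh7). All 10 fibroblast markers were past the filter, with means of 9.90 and 9.82 and differences from -0.23 (Pdgfra) to 0.10 (Dcn). The 8 smooth muscle and pericyte markers measured had means of 8.56 and 8.51, from -0.22 (Tagln) to 0.08 (Rgs5). Past the filter were 3 of 9 measured endothelial markers, from -0.06 (Sox17) to 0.10 (Tek), with means over all 9 of 5.12 and 4.99. Of 12 macrophage and leukocyte markers 8 were past it, from -0.34 (Lyz2) to 0.24 (Tyrobp), with means over all 12 of 6.04 and 5.95. Of 5 skeletal muscle regulators 2 were past it, Pax7 (-0.11) and Myf5 (-0.07), with means over all 5 of 4.80 and 4.72, and Myod1 and Myog were below it. None of these markers past the filter differed by 1.5-fold, beside 0.844% of all genes kept that were higher and 0.534% that were lower. Interferon-stimulated genes were mostly lower on the Mef2d-labelled array, with means of 6.97 and 6.57 over 11 genes. Of these, 10 were below 0, whereas 48.2% of all genes kept were above 0, and 3 were at least 1.5-fold lower. The 3 were Mx2 (-0.88) and, named after their values were seen, Isg15 (-0.69) and Usp18 (-0.59), while Bst2 was highest (0.06). All these lists were chosen with earlier results of these data known. The part of these lists in the differences of the members was not tested.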

How the data were processed

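The deposited value table gives 1 log2 RMA level for each of 19239 probe sets on each array, made with RMA and affy 1.36.1 per the submitters' processing notes. RMA corrects background, quantile-normalizes the arrays and summarizes probes. It compresses differences of dim probe sets. The probe set definition and the genome build are not given in the sources at hand. Symbols come from the platform annotation, which names 16592 probe sets and leaves 2647 unnamed. The number in the probe set name was that gene's identifier in the reference table (GRCr8) for 6 of the 7 members, Hdac9 being the exception, whose name rests on the annotation alone. Both value columns were used as deposited.

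Differences, counts and list medians were computed in Python 3.11.15 with numpy 2.4.6 and pandas 2.3.3, without a test, because each condition has 1 array. The counting, scaling and element search steps were checked on simulated data. Its noise was smaller than the spread on these arrays and no difference was set at 1.5-fold. The check therefore says nothing about counts near that threshold. The members and the gene lists were chosen with earlier results of these data known. Named from each pathway list were all genes past 1.5-fold and the 2 largest differences in each direction. From each marker list the highest and lowest gene were named, as were the 5 genes closest to Mef2d and to Hdac9. Outside this rule, Hdac3, Hdac8, Camk2d, Prkd1, Prkd2, Prkd3, Kat2b, Mb, Hdac9, Mef2c, Xirp1 and Xirp2 were also named from the pathway lists. Myod1, Myog, Isg15 and Usp18 were also named from the marker lists. Promoter windows (RefSeq, GRCr8) were matched by gene identifier or symbol. Alternatives were 3 other scalings, 2 level filters, 3 thresholds, list means and current symbols only. The search of all genes for the MEF2 element and its alternatives, a stricter element among them, were added after seeing the data.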

Additional observations from a re-analysis of the deposited data

How the results depend on the processing

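Of the member differences and list medians recomputed here, only that of Mef2d was at least 1.5-fold, and it kept its sign. RMA had already quantile-normalized the arrays (medians 6.29 on the lacZ-labelled and 6.28 on the Mef2d-labelled array), so other scalings were apt to move values little. The difference of Mef2d lay between 0.71 and 0.73 under median centring, quantile normalization and subtraction of a loess on level. Those of the other 6 members moved by less than the robust SD of genes of like level, and Hdac7, close to 0, ran from -0.02 to 0.01. The median over all genes moved by up to 0.01 under these scalings, which shared 90 to 98 of the 98 higher and 55 to 56 of the 62 lower genes. The 98 higher genes were 178 beyond 3 robust SDs, 408 at 1.3-fold and 9 at 2-fold, and the 62 lower genes became 287 at 1.3-fold, 5 at 2-fold and 30 with the level filter at the median. The median of the MEF2 factors (-0.06) became 0.26 with that filter, which removed Mef2b, and 0.15 as a mean, and the class IIa median (0.23) became 0.13 with that filter, which removed Hdac9. At 2-fold 0 MEF2 factors were higher. At 1.3-fold, 3.51% of the 11614 genes kept were higher and 2.47% lower. Higher at 1.3-fold were 1 of 21 kinase and export genes, 1 of 18 inputs to MEF2, 1 of 15 coactivators and 1 of 14 corepressors. Among 21 muscle targets 3 were higher and 1 lower, and 1 of the 18 inputs was lower. Beyond 3 robust SDs 1 of 18 inputs and 3 of 21 muscle targets were higher, beside 178 of all 11614 genes. Without a level filter 1 of 16 coactivators was higher, beside 122 of 16592 genes. It was Kat2b (listed as Pcaf), with levels of 4.36 and 5.02 near background. Of 161 genes with a MEF2 element, the 7 higher and 1 lower became 15 and 3 at 1.3-fold and 1 and 0 at 2-fold. They were 2 and 0 of 45 with the stricter element, and 7 and 1 of 161 under each other scaling. The other alternative counts and medians stayed within 1.5 times or 1 robust SD. No paired analysis was possible because there is a single array per condition, for which reason replicates could not be left out in turn. Weak signal limits Mef2b most, and then Hdac9.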

Other observations

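Gbp1, which interferon induces, was 1.61-fold higher on the Mef2d-labelled array (levels 5.99 and 6.67), whereas 10 of the 11 interferon-stimulated genes followed here were below 0. Its upstream window holds a MEF2 element of the wider form at positions -189 to -180. Gbp1 was picked out after its value was seen, and a link between the element and its level was not tested.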
